A study of Mus musculus with 9 samples.

Results

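Circadian clock genes were followed in hippocampal cells of mice with and without mild traumatic brain injury (mTBI). The set held 10 genes out of the 55421 genes in the count table, listed by symbol and found by their Ensembl identifiers: the activators Arntl (also called Bmal1) and Clock, the repressors Per1, Per2, Per3 and Ciart, the nuclear receptors Nr1d1 and Nr1d2, and the transcription factors Dbp and Tef. All 10 passed the filter on low counts, with 416 counts or more in every library. There were 9 libraries in 3 groups of 3: wild-type mice after a sham operation (WT sham), wild-type mice after a single controlled cortical impact of mild strength (WT mTBI), and injured mice in which Tmsb4x was conditionally deleted (CKO mTBI). Per the labels, all mice carried the fluorescent protein tdTomato in neurons, and live tdTomato-positive cells were sorted from trypsin-treated hippocampus. The driver of the knockout, the age of the mice, the time after injury and the time of day of tissue collection are not given in the labels, which state a cycle of 12 h light and dark. No group held knockout mice after a sham operation.

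The clock is a loop of transcription that runs through about a day in most cells. CLOCK and ARNTL bind as a pair to E-box sequences and switch on the Per, Cry, Nr1d, Dbp, Tef and Ciart genes. PER and CRY proteins then block that pair, and the NR1D receptors, also called REV-ERB, repress Arntl and Clock. As a result the transcripts of Dbp, Per and Nr1d genes peak at another time of day than that of Arntl in most tissues, and the ratio of Dbp to Arntl is often used as a reading of clock time. The hippocampus holds such a clock, and Per1 there is also known as a gene that neuronal activity and glucocorticoid hormones induce.

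Several facts of the libraries bear on every comparison. Totals were 36452443 to 39590872 counts per library. Tmsb4x, the deleted gene, stood at 1.83 to 2.79 CPM (counts per 1000000 counts of the library) in CKO mTBI, at 297 to 900 CPM in WT mTBI and at 1.68 to 2.73 CPM in WT sham. The libraries labelled WT sham thus held as little of the targeted transcript as the knockout, against their label, and directions against sham below are those of the libraries labelled WT sham. These 3 libraries also lay closer together than the others, with a biological coefficient of variation of 3.26% against 19.6% in WT mTBI and 18.7% in CKO mTBI. If they were not 3 mice, the spread among them is technical. The fit shares 1 spread over all 9 libraries (15.3%), so this would bear on the p-values of all 3 comparisons. WT mTBI replicate 3 held 835 CPM of Xist and the other 8 libraries at most 0.892 CPM, so that 1 library came from a female. Despite the sort for neurons, marker genes of oligodendrocytes summed to 5017 to 9194 CPM and those of astrocytes to 3987 to 5117 CPM, beside 8739 to 10269 CPM for 7 neuronal markers. In such mixed samples, fewer cells of a type and less RNA per cell cannot be told apart.

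Per unit of exon length, Tef was the most abundant member at 46.8 ± 1.96 CPM per kb (SD, n = 9), followed by Nr1d1 at 32.3 ± 3.04. Neither range met that of the next gene in the order. Nr1d2 followed at 19.2 ± 1.91, Per1 at 15.8 ± 2.28 and Dbp at 13.3 ± 2.75, with ranges over the libraries that overlapped from each to the next. Per2 at 8.63 ± 0.895, Per3 at 7.86 ± 0.496, Clock at 7.45 ± 0.823 and Ciart at 6.36 ± 1.30 CPM per kb also overlapped as neighbours. Arntl was the lowest at 3.56 ± 0.129 CPM per kb and overlapped none. All further levels are in CPM per gene, which compares libraries and not genes.

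How much a gene varied over the 9 libraries differed widely among the members. The ratio of the highest to the lowest library was 1.89 for Dbp and 1.73 for Ciart, but 1.17 for Tef and 1.13 for Arntl. The SD of log2 CPM over the libraries was 0.30 for both Dbp and Ciart, 0.21 for Per1 and 0.053 for Arntl. Its median was 0.15 over the 10 members and 0.21 over the 20032 genes tested, and 1.71% of those genes had a smaller SD than Arntl. The genes tested were not matched to the members for level, and low counts add to such an SD.

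**Figure D1:**
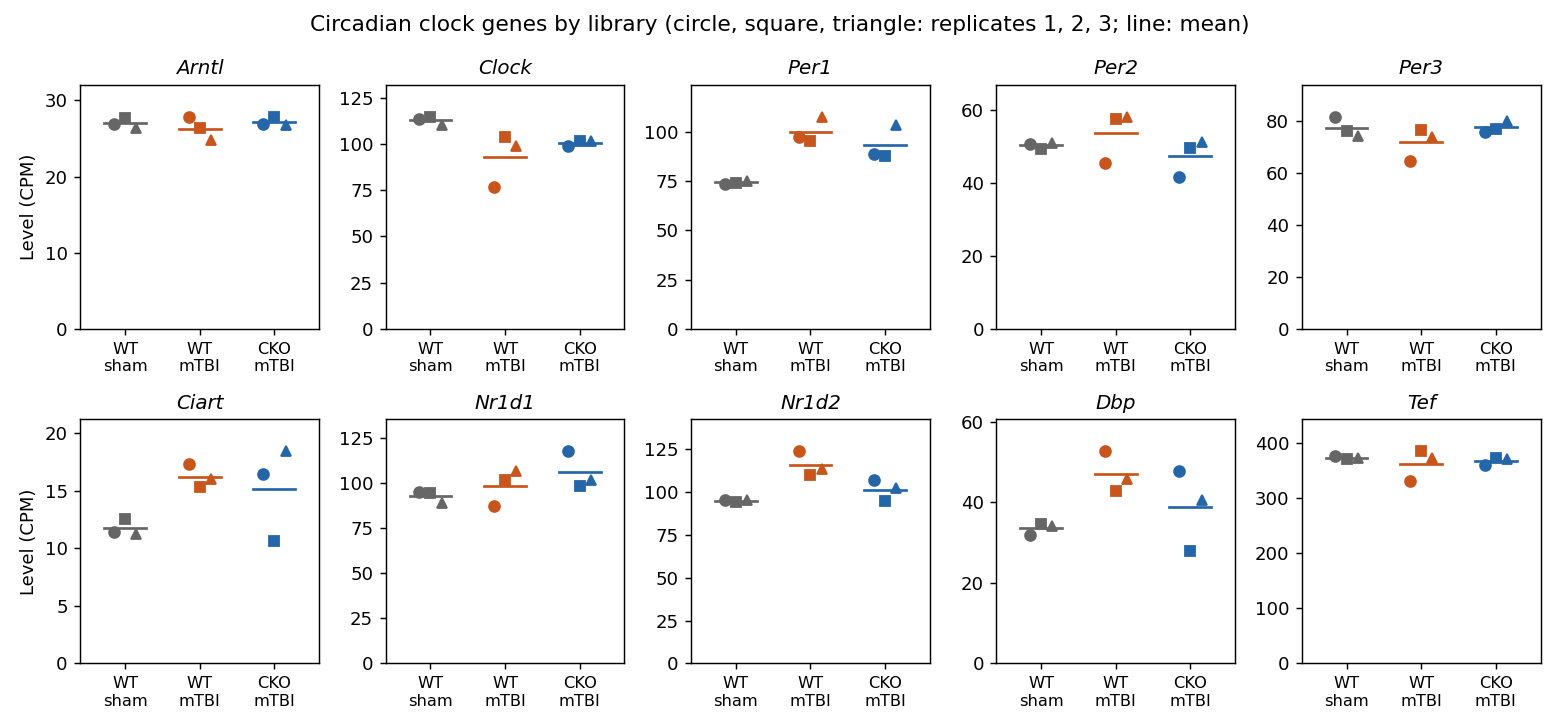
Level in CPM (vertical axis, from 0) of the 10 clock genes in the 9 libraries, by group on the horizontal axis, with circles, squares and triangles for replicates 1, 2 and 3 and a line at each group mean. Per1, Dbp, Ciart and Nr1d2 were higher in all 3 WT mTBI libraries than in any WT sham library, Clock was lower, and CKO mTBI replicate 2 held the lowest Dbp and Ciart of all 9 libraries.

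The first comparison, called the injury comparison below, set WT mTBI against the libraries labelled WT sham. These groups differed in their level of Tmsb4x as well as in injury, and the parts of each cannot be told apart here. The repressor Per1 and the output gene Dbp, with Ciart and Nr1d2, lay above every sham library in all injured wild-type libraries, by 1.22-fold to 1.40-fold, and Clock lay below. Per2, Per3, Nr1d1, Tef and Arntl overlapped between the groups. None of the 10 members passed the threshold (edgeR quasi-likelihood test, adjusted p under 0.05 over all genes), where 0.509% of the 20032 genes tested were called (0.384% higher, 0.125% lower). At an unadjusted p under 0.05 there were 5 members, against 13.2% of all genes, and DESeq2 called 2, Per1 and Nr1d2. In each comparison DESeq2 also called more of all genes than edgeR, with the counts in the closing section. Libraries did not overlap for 5 of 10 members, against 23.9% of all genes (12.4% higher, 11.5% lower). The members' median change was log2 0.090, beside 0.018 over all genes tested.

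Among the repressors, Per1 (ENSMUSG00000020893, GRCm38 chromosome 11, 69095217 to 69109960, plus strand) encodes a period protein that enters the nucleus with cryptochromes. It was at 73.7, 74.1 and 75.0 CPM in sham and at 97.5, 95.1 and 107.6 CPM in WT mTBI. The groups did not overlap, and the lowest injured library exceeded the highest sham library by more than the whole range of sham. The change was 1.35-fold (log2 0.43, SE 0.082, 95% interval 0.25 to 0.61), with adjusted p = 0.0514, just outside the threshold (edgeR). Per1 was inside the threshold in DESeq2 (adjusted p = 0.00111), without the count filter (0.00393), in a fit of the 6 libraries compared (0.0327), without WT mTBI replicate 1 (0.0432) and without CKO mTBI replicate 1 (0.0405). It was outside in every other setting except that with a replicate block, with adjusted p = 0.253 to 0.296 without 1 sham library and 1 with the sham libraries summed to 1 sample. The change itself lay between log2 0.33 and 0.45 in all settings run.

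Ciart (ENSMUSG00000038550, chromosome 3, 95878503 to 95882251, minus strand) encodes CHRONO, a repressor that binds ARNTL. Its levels were 11.4, 12.5 and 11.2 CPM in sham and 17.4, 15.3 and 16.0 CPM in WT mTBI, again without overlap (log2 0.47, SE 0.17, adjusted p = 0.277, edgeR). Per2 (chromosome 1, 91415982 to 91459324), a period protein that is the partner of cryptochromes in the core loop, stood at 50.7, 49.4 and 51.0 CPM in sham. In WT mTBI its levels were 45.4, 57.7 and 58.3 CPM, replicate 1 being the low one, so that the injured libraries fell on either side of sham (log2 0.094, interval -0.14 to 0.33). Per3 (chromosome 4, 151003652 to 151044665), the period gene least needed for rhythm, ranged from 74.4 to 81.6 CPM in sham and from 64.7 to 76.6 CPM in WT mTBI (log2 -0.11, interval -0.28 to 0.065). The 3 period genes thus differed in their relation to sham, with Per1 apart in all injured libraries and Per2 and Per3 overlapping it.

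The promoters of these repressors show the sequences through which the loop is known to act, and are given with the letters of a motif in capitals. RefSeq (GRCm38.p6) held windows from 250 bases before to 50 after a transcription start for 9 of the 10 members, with none for Per2. The E-box CACGTG, searched on both strands, was in windows of Ciart, Per1 and Tef and in 7.15% of all 32851 windows. The D-box TTATGTAA, to which DBP and TEF bind, was in the Per3 window and in 0.938% of all, and did not overlap an E-box. Ciart (chr3:95882252-95882478, minus strand) held 3 E-boxes, starting 116, 58 and 44 bases before the start site. Per1 held 1 at 1 of its 2 starts in the table, 166 bases before it (chr11:69098699-69098947, plus strand), and Per3 (chr4:151044666-151044915, minus strand) held 2 D-boxes and no E-box.
Ciart: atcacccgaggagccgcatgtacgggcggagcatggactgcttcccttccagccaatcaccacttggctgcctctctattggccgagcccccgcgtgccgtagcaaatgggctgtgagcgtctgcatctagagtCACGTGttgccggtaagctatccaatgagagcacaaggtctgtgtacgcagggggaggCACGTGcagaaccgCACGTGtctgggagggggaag
Per1: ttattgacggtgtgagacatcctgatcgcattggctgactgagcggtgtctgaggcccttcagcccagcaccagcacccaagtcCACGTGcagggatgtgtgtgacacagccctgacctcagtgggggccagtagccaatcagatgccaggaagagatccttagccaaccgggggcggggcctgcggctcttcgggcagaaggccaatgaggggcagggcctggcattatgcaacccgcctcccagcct
Per3: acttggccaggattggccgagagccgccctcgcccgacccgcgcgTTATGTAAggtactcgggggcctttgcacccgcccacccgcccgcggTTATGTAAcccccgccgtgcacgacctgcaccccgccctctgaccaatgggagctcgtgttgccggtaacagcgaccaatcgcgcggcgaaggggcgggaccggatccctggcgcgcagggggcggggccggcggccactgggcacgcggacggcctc
Only bases before the first annotated exon are shown. A match is a description of these letters and not a bound site.

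Of the output factors, Dbp (ENSMUSG00000059824, chromosome 7, 45705088 to 45710203, plus strand) encodes an activator of the PAR bZIP family that carries clock time to metabolic genes. It was at 31.8, 34.5 and 34.2 CPM in sham and at 52.7, 42.7 and 45.8 CPM in WT mTBI. The injured libraries all lay above sham and spread more widely, with replicate 1 the highest of all 9 libraries (1.40-fold, log2 0.49, SE 0.16, interval 0.14 to 0.84, adjusted p = 0.234, edgeR). Dbp passed without the count filter (adjusted p = 0.0159) and in the fit of 6 libraries (0.0449), and not in the other settings, where adjusted p reached 1. Tef (ENSMUSG00000022389, chromosome 15, 81802421 to 81826863, plus strand), its paralog, was at 371.8 to 376.6 CPM in sham. Replicates 2 and 3 of WT mTBI were at 386 and 373 CPM and replicate 1 at 331 CPM, so the groups overlapped (log2 -0.042, interval -0.20 to 0.11). Sphk2 shares 539 exonic bases with Dbp on the other strand, and the antisense gene Gm17597 shares 193 with Tef. With counting that ignored strand, the 2 genes of such a pair cannot be told apart there.

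Tef is shown because its groups overlapped and it too holds an E-box at each of its 2 starts, 127 bases before 1 of them in an annotated exon and, as printed, 138 bases before the other (chr15:81811164-81811413, plus strand).
Tef: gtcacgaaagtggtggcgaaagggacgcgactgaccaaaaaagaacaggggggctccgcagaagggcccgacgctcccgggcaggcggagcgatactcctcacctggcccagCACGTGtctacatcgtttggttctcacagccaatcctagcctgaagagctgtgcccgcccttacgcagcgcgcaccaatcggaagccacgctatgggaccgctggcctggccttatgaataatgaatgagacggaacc
The window of Dbp held none of the 3 motifs searched, which says only that these letters are not in it.

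The nuclear receptors repress genes that carry a ROR response element. Nr1d2 (ENSMUSG00000021775, chromosome 14, 18204054 to 18239127, minus strand) was at 95.42, 94.34 and 94.95 CPM in sham and at 123.7, 109.9 and 113.5 CPM in WT mTBI. All injured libraries lay above sham, replicate 1 farthest (1.22-fold, log2 0.29, SE 0.073, interval 0.13 to 0.45, adjusted p = 0.123, edgeR). It passed in DESeq2 only (adjusted p = 0.0283). Nr1d1 (ENSMUSG00000020889, chromosome 11, 98767932 to 98775333, minus strand), its paralog, was at 95.3, 94.9 and 89.0 CPM in sham and at 87.6, 101.7 and 107.1 CPM in WT mTBI. Here replicate 1 was the lowest of all 9 libraries, and the groups overlapped (log2 0.086, interval -0.12 to 0.29). Nr1d1 and the thyroid receptor gene Thra share 263 exonic bases on opposite strands. Between these paralogs, WT mTBI replicate 1 was therefore at opposite ends of the order.

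The activators, which drive the loop, differed in whether their groups overlapped. Arntl (ENSMUSG00000055116, chromosome 7, 113207465 to 113314126, plus strand) was at 26.9, 27.6 and 26.4 CPM in sham and at 27.8, 26.3 and 24.7 CPM in WT mTBI. The groups overlapped, with a change of log2 -0.038 (interval -0.21 to 0.13). Whether this change differed from those of other members was not tested. The core TAGGTCA of the ROR response element was found in a window of Arntl, 30 bases after a start, and in 2.61% of all windows. Clock (ENSMUSG00000029238, chromosome 5, 76209868 to 76304792, minus strand), which encodes the partner of ARNTL, was at 113.4, 114.7 and 110.4 CPM in sham and at 76.7, 103.8 and 99.1 CPM in WT mTBI. All injured libraries lay below sham, replicate 1 farthest (log2 -0.28, SE 0.10, adjusted p = 0.276, edgeR), and without replicate 1 the change was log2 -0.15 (adjusted p = 0.210).

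**Figure D2:**
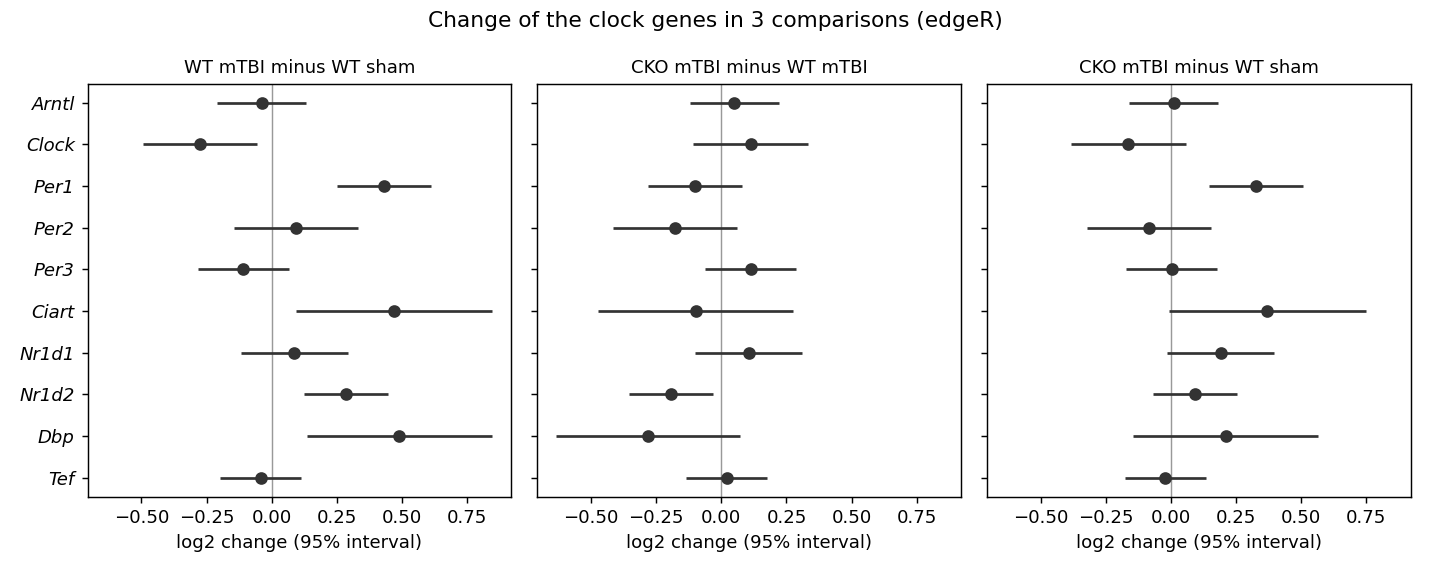
Log2 change (horizontal axis) of the 10 clock genes with its 95% interval, from edgeR, in the 3 comparisons; intervals are per gene and not adjusted for the number of genes. Per1 stood at 0.43 and 0.33 in the comparisons of injured with sham libraries, while the interval of Arntl crossed 0 in all 3.

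WT mTBI replicate 1 held the extreme value of 6 members: the highest Dbp and Nr1d2 and the lowest Per3, Tef, Nr1d1 and Clock of the 9 libraries. In that library, level relative to the mean of all libraries had a rank correlation of -0.29 with exon length across 20014 genes, against 0.0081 to 0.11 in the other 8. Of the members lowest there, Clock has 13727 exonic bases, Per3 9608, Tef 7867 and Nr1d1 3077. Of those highest there, Dbp has 2993 and Nr1d2 5409. Clock, Per3 and Tef are the longest of all members, and Nr1d1 is shorter than Nr1d2. The part of length in these values was not tested. Without that library, Per1 was at log2 0.45, Dbp at 0.40, Ciart at 0.42 and Nr1d2 at 0.24, all still higher in WT mTBI.

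The second comparison, of CKO mTBI with WT mTBI, asks what the loss of Tmsb4x altered after injury. None of the 10 members passed (edgeR), where 0.015% of all genes were called (0.00499% higher, 0.00998% lower). Nr1d2 was the 1 member at an unadjusted p under 0.05, against 6.6% of all genes, and DESeq2 called none. It was at 106.6, 94.7 and 102.3 CPM in CKO mTBI, below all WT mTBI libraries (log2 -0.19, SE 0.073, adjusted p = 0.732, edgeR). That was the only member without overlap, against 9.72% of all genes (4.86% higher and 4.86% lower). For the other 9 members the groups overlapped, with changes from log2 -0.28 for Dbp to 0.11 for Clock. The intervals were narrow for Tef (log2 -0.13 to 0.18) and Arntl (-0.12 to 0.22) and wide for Dbp (-0.63 to 0.072) and Ciart (-0.47 to 0.28). The members' median was log2 -0.039, beside 0.0012 over all genes tested.

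For both Dbp and Ciart, 1 CKO mTBI library lay apart from the others of its group. Dbp was at 47.8 CPM in CKO mTBI replicate 1 and 40.7 CPM in replicate 3, within or near the range of WT mTBI, but at 27.9 CPM in replicate 2, below every sham library. Ciart was also lowest in replicate 2, at 10.6 CPM and below every sham library, with 16.4 CPM in replicate 1 and 18.4 CPM in replicate 3. Nr1d2 at 94.7 CPM in replicate 2 lay within the range of sham. Per1 did not follow, being at 88.7, 87.5 and 103.3 CPM in replicates 1, 2 and 3, all above sham and with replicates 1 and 2 alike. Without CKO mTBI replicate 2, the knockout comparison gave log2 -0.088 for Dbp in place of -0.28, and 0.11 for Ciart in place of -0.098, neither passing (adjusted p = 0.819 and 0.788, edgeR).

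The third comparison set CKO mTBI against sham and shares its libraries with the other 2. None of the 10 members passed (edgeR), where 0.0699% of all genes were called (0.0499% higher, 0.02% lower). Per1 was the 1 member at an unadjusted p under 0.05, against 7.2% of all genes, and DESeq2 called none. Per1 was 1.25-fold higher (log2 0.33, SE 0.082, interval 0.15 to 0.51, adjusted p = 0.233). Nr1d1, at 117.9, 98.8 and 102.0 CPM, was above all sham libraries (log2 0.19, adjusted p = 0.738), and Clock, at 98.9, 101.8 and 101.6 CPM, was below them (log2 -0.16, adjusted p = 0.861). These 3 were the members without overlap, against 17.2% of all genes (8.75% higher, 8.4% lower). Dbp was at log2 0.21 (interval -0.14 to 0.56) and at 0.40 without CKO mTBI replicate 2. Ciart was at 0.37 (interval -0.0066 to 0.75), and at 0.57 without that library. Per2, at 41.6, 49.7 and 51.2 CPM, Per3, at 75.8, 76.7 and 80.0 CPM, Tef, at 361 to 373 CPM, and Arntl, at 26.8 to 27.9 CPM, overlapped sham and lay within log2 0.09 of it.

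Within single libraries, the ratio of Dbp to Arntl gives a reading that does not depend on the scaling of libraries. Relative to its mean in sham, this log2 ratio was -0.071, 0.0086 and 0.062 in sham and 0.61, 0.39 and 0.58 in WT mTBI. In CKO mTBI it was 0.52, -0.31 and 0.29. The ratio of Per1 to Arntl was 0.35, 0.39 and 0.66 in WT mTBI and 0.26, 0.19 and 0.49 in CKO mTBI on the same scale. The ratio of Per2 to Arntl was -0.19, 0.23 and 0.33 in WT mTBI and -0.27, -0.065 and 0.034 in CKO mTBI. Relative to Arntl, Per1 was thus above all sham libraries in 6 of 6 injured libraries, Dbp, Ciart, Nr1d1 and Nr1d2 in 5 of 6, Per2 in 2 of 6 and Per3 in 0 of 6. Nr1d1 in CKO mTBI replicate 2 was so only narrowly, at 0.041 against at most 0.037 in sham. By CPM, 30.9% to 41.9% of all genes tested were above every sham library in a given injured library. That share is per library, and it was not computed for ratios to Arntl. Arntl varied little (SD of log2 CPM 0.053), so these ratios largely follow the CPM values and are not separate from them. A difference in the time of collection was not recorded in the labels and was not tested.

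**Figure D3:**
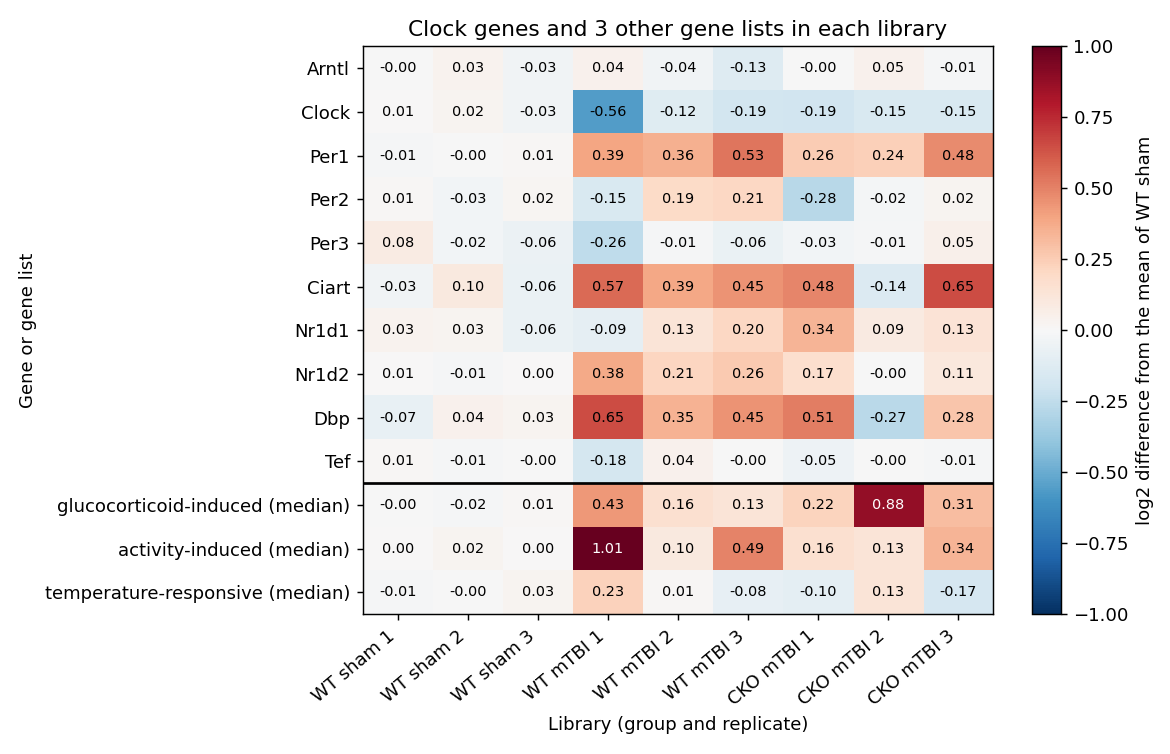
Log2 difference from the mean of the WT sham libraries for each clock gene (upper 10 rows) and for the median of 3 other gene lists (lower 3 rows) in each library (columns), printed in each cell and coloured from -1 (blue) to 1 (red). CKO mTBI replicate 2 had -0.27 for Dbp and 0.88 for the glucocorticoid-induced list, and WT mTBI replicate 1 had 1.01 for the activity-induced list.

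Lists of genes from pathways that also act on Per1 were set beside the members. The 10 activity-induced genes, such as Fos and Arc, had medians of log2 1.01, 0.098 and 0.49 above sham in WT mTBI replicates 1, 2 and 3, and of 0.16, 0.13 and 0.34 in CKO mTBI. The 10 glucocorticoid-induced genes had medians of 0.43, 0.16 and 0.13 in WT mTBI and of 0.22, 0.88 and 0.31 in CKO mTBI. CKO mTBI replicate 2, the library of lowest Dbp, held 63.0 CPM of the lipid droplet gene Plin4 and 155 CPM of the kinase gene Sgk1, against at most 11.01 and 90.5 CPM in the other 8 libraries. None of the 10 genes of either list was called in any comparison (edgeR). The DESeq2 counts that follow stand beside its larger counts over all genes, given in the closing section. After injury, 7 activity-induced genes (median log2 0.57) and 3 glucocorticoid-induced genes (0.26) were at an unadjusted p under 0.05, against 13.2% of all genes, and DESeq2 called 3 and 1. With the knockout there were 4 of each list, against 6.6% of all genes, and none was called by DESeq2. All 10 activity-induced genes were negative (median -0.30) and all 10 glucocorticoid-induced genes positive (0.28), where 50.2% of all genes were positive. Every glucocorticoid-induced gene was highest in CKO mTBI replicate 2. Every activity-induced gene except Sik1 was highest in WT mTBI replicate 1. The directions within a list are therefore not separate observations. In CKO mTBI against sham, 1 activity-induced (median 0.21) and 7 glucocorticoid-induced genes (0.52) were at an unadjusted p under 0.05, against 7.2% of all genes. DESeq2 called 1 of each, Sik1 and Plin4. The part of these pathways in the clock genes was not tested.

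None of the 8 temperature-responsive genes was called in any comparison by edgeR or DESeq2, with 0 at an unadjusted p under 0.05. Its cold-inducible RNA-binding protein genes, named after their values were seen, were lowest in the same library. Cirbp was at 44.0 CPM and Rbm3 at 39.03 CPM in CKO mTBI replicate 2. In the other 8 libraries they were at 63.0 to 95.6 and at 60.6 to 93.2 CPM. CKO mTBI replicates 1 and 3, with Dbp at 47.8 and 40.7 CPM, held the highest Cirbp, at 95.6 and 91.4 CPM. WT mTBI replicates 1, 2 and 3 had Dbp at 52.7, 42.7 and 45.8 CPM. Their Cirbp was at 80.1, 67.0 and 65.0 CPM, beside 63.0 to 64.9 CPM in sham. Cirbp and Rbm3 did not pass in any comparison (edgeR, adjusted p = 0.796 to 0.999). Of the heat shock genes on that list, Hspa1b at 25.4 CPM, Hsph1 at 364 CPM and Hspa8 at 1669 CPM were at their highest in CKO mTBI replicate 2. The others were highest elsewhere, Hspa1a in WT sham replicate 2 (5.82 CPM) and Dnajb1 and Hsp90aa1 in WT mTBI replicate 1 (53.0 and 963 CPM). The relation of these genes to the clock genes was not tested.

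Choroid plexus genes were higher in most injured libraries. The 10 markers summed to 220.1 to 221.6 CPM in sham, 4420 to 6204 CPM in WT mTBI. Among CKO mTBI libraries the sum was 235 CPM in replicate 1, 5014 CPM in replicate 2 and 4098 CPM in replicate 3. In replicate 1 Per1 was at 88.7, Dbp at 47.8 and Ciart at 16.4 CPM, in replicate 2 at 87.5, 27.9 and 10.6 CPM, and in replicate 3 at 103.3, 40.7 and 18.4 CPM. With the choroid list as a covariate, Per1 was at log2 0.33 (SE 0.16, adjusted p = 0.495, edgeR), Dbp at 1.07 (adjusted p = 0.133), Ciart at 0.74 (0.455) and Nr1d2 at 0.43 (0.292) in the injury comparison. The list was low in every sham library and high in every WT mTBI library. That fit therefore separates the list from injury mainly through CKO mTBI replicate 1, and its values cannot serve as estimates freed of choroid plexus RNA. Summed oligodendrocyte markers were at 7220, 5017 and 9194 CPM in WT mTBI, where Per1 was at 97.5, 95.1 and 107.6 CPM. In CKO mTBI the sums were 6221, 7348 and 6306 CPM, with Per1 at 88.7, 87.5 and 103.3 CPM. Sham libraries had sums of 6426 to 6468 CPM and Per1 at 73.7 to 75.0 CPM. The part of choroid plexus or oligodendrocyte RNA in the clock genes was not tested.

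Outside the 10 members, 24 other genes of the clock were tested, and none was called in any of the 3 comparisons (edgeR). At an unadjusted p under 0.05 there were 3 after injury, 3 with the knockout and 1 in CKO mTBI against sham. The shares of all genes were 13.2%, 6.6% and 7.2%. DESeq2, which called more of all genes than edgeR, called 0, 0 and 1, the last being Rora. In the injury comparison 16 had positive and 8 negative changes, where 53% of all genes were positive, with a median of log2 0.029. Cry1, a cryptochrome and partner of the period proteins, was at 10.6, 10.7 and 9.97 CPM in sham and at 14.6, 13.4 and 11.8 CPM in WT mTBI, without overlap (log2 0.35, SE 0.15, adjusted p = 0.348). In CKO mTBI it was at 11.6, 8.31 and 12.1 CPM, with replicate 2 lowest, as in Dbp and Ciart. Timeless, a replication fork gene related to a fly clock gene, was at 5.05 to 5.17 CPM in sham and 3.52 to 4.44 CPM in WT mTBI (log2 -0.39, adjusted p = 0.293). Its level was 4.73 to 5.53 CPM in CKO mTBI, above all WT mTBI libraries (log2 0.41, adjusted p = 0.732). Fbxw11, a subunit of the ubiquitin ligase that marks period proteins for breakdown, was at 173.5 to 174.6 CPM in sham and 142.7 to 160.6 CPM in WT mTBI (log2 -0.21, adjusted p = 0.301).

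Rora, which activates Arntl through the element that the NR1D receptors repress, had the smallest p of the wider list in both comparisons of CKO mTBI. It was at 37.2 to 38.7 CPM in sham, at 37.8, 38.5 and 48.9 CPM in WT mTBI and at 83.1, 46.2 and 51.4 CPM in CKO mTBI. All knockout libraries lay above sham, replicate 1 far above the rest (log2 0.67, SE 0.19, adjusted p = 0.303), and against WT mTBI the groups overlapped (log2 0.53, adjusted p = 0.732). Hlf, the paralog of Dbp and Tef, was at 142.6 to 145.8 CPM in sham and 150.6 to 164.5 CPM in CKO mTBI (log2 0.14, adjusted p = 0.721). The E-box repressor Bhlhe41 was at 27.8 to 30.6 CPM in sham and 29.95 to 36.9 CPM in CKO mTBI (log2 0.19, adjusted p = 0.793). Fbxl21, a ligase subunit acting on cryptochromes, was at 4.39 to 6.01 CPM in CKO mTBI and 2.98 to 4.18 CPM in WT mTBI (log2 0.42, adjusted p = 0.732).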

How the data were processed

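The authors deposited raw read counts, 1 column for each of 9 libraries and 1 row for each of 55421 Ensembl genes. They were made with featureCounts 2.0.6 over exons of the Ensembl GRCm38 annotation, per the file headers, without options for strand, for read pairs as 1 fragment or for reads with several alignments. Per the submitters' processing notes, reads were handled with Trim Galore and HISAT2 on mm10, without versions.

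Symbols, positions and exon lengths came from GENCODE M21 (GRCm38), which matched 55240 genes. CPM used TMM factors (0.990 to 1.01). After filterByExpr, 20032 genes entered the quasi-likelihood test of edgeR 4.0.16 (R 4.3.3), which is two-sided, in 1 fit of all 9 libraries, with Benjamini-Hochberg adjustment over all genes, and called at an adjusted p under 0.05. The fit was tested on simulated data. DESeq2 1.42.0 and the alternatives of the closing section were run on the same counts. Log2 CPM used a prior count of 2. Totals vary little between libraries, and a member had 416 to 15127 counts.

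All members and the wider lists were chosen with earlier results of these data known. All 10 members were named. From 24 further clock genes, any called gene and the 3 of smallest p per comparison were named. For Dbp and Arntl, the 5 protein-coding genes of at least 5 CPM with the smallest root mean square difference in centred log2 CPM over 9 libraries were taken, of which 1 for Dbp is not reported here. Genes outside these rules, such as Fos, Plin4 and Cirbp, were chosen after their values were seen. The labels give replicate numbers but nothing that pairs mice, and the deviations of same-numbered libraries had correlations between -0.0887 and 0.0733.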

Additional observations from a re-analysis of the deposited data

How the results depend on the processing

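Among the values of single clock genes under other settings, 535 kept their direction and their side of the threshold, 9 passed newly and 16 turned sign, all of these between log2 -0.25 and 0.11. After injury, 102 genes were called: 536 in DESeq2, 676 without a count filter, 64 with a stricter filter, 253 in the 6 libraries compared, 42 with a choroid covariate, 1 with sham summed (an alternative chosen after seeing the data), and 5 to 252 without 1 library. The cause was not tested, except that leaving out or summing libraries leaves fewer samples. Called clock members went from 0 to 2 in DESeq2, without a filter and in the 6 libraries, and were 0 to 1 without 1 library. With the knockout, 3 genes were called: 18 in DESeq2, 68 without a filter, 1 in the 6 libraries, 6 with a choroid covariate, and 2 to 7 without 1 library. In CKO mTBI against sham, 14 were called: 223 in DESeq2, 387 without a filter, 71 in the 6 libraries and also 71 with a choroid covariate, 0 with sham summed, and 2 to 128 without 1 library.

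With the replicate number as a block, which the labels give no reason to treat as a pairing, 107, 3 and 13 genes were called in the 3 comparisons, and 1 clock member, Per1, after injury (adjusted p = 0.0482, edgeR). Per2 after injury was at log2 -0.25 with a choroid covariate. Per3 in CKO mTBI against sham, at log2 0.0036, turned to -0.0025 with RLE scaling, -0.0023 in DESeq2, -0.0040 without a filter, -0.0014 with a stricter filter and -0.041 with a choroid covariate. Without 1 library, Per3 there ranged from -0.024 to 0.042, Arntl from -0.012 to 0.025 and Per2 from -0.14 to 0.0022. Tef ranged from -0.099 to 0.020 after injury and from -0.042 to 0.075 with the knockout, where Clock ranged from -0.0097 to 0.21 and Ciart from -0.26 to 0.11. Ciart had the widest intervals and also the fewest counts (416 to 718). After injury, however, Arntl with 993 to 1089 counts had an SE of 0.078, against 0.16 for Dbp with 1089 to 2055. The cause of these widths was not tested.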

Other observations

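The genes whose profile over the 9 libraries was most like that of Dbp were sought among 11571 other protein-coding genes of at least 5 CPM, as a description. Among the nearest were the phosphatase gene Dusp26 (root mean square difference log2 0.11), the calcium-binding protein gene Necab3 (0.11), the splicing-associated gene Cwc27 (0.11) and the cytochrome oxidase assembly gene Cox18 (0.11). Dusp26 was at 33.7 to 35.5 CPM in sham, at 57.9, 42.9 and 44.0 CPM in WT mTBI and at 45.7, 32.9 and 39.4 CPM in CKO mTBI, with its lowest value in CKO mTBI replicate 2. Among the members, Ciart was nearest to Dbp (0.13), and 23 of those genes were nearer than Ciart. Nr1d2 was at 0.17 with 165 nearer genes, Per1 at 0.22 with 916, and Clock farthest at 0.42 with 10199. The genes most like Arntl were Ssrp1, Ppp1r21, Utp14a, Paip2b and Rab10, at 0.033 to 0.034, all of which, like Arntl, varied little between libraries.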
